A study of Mus musculus with 2 samples.

Results

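Melanoma cells with low levels of hypoxia genes made up 658 of the 987 melanoma cells in 2 single-cell RNA libraries from mouse B16-F10 tumours, and 658 of all 15756 deposited cell barcodes. A melanoma cell was a barcode with at least 500 unique molecular identifiers (UMIs, each standing for 1 captured RNA molecule), at least 200 genes, at most 10% mitochondrial UMIs, 20 or more UMIs over Pmel, Mlana and Dct, and under 3 UMIs of Ptprc. The melanoma cells of both libraries were ranked together by the share of their UMIs from Car9, Pgf, Ndrg1 and Egln3, and the lower 2 of 3 equal parts of the ranking were taken. The members were thus chosen by the measured counts of these genes, of the 3 pigment genes and of Ptprc. The OX40 agonist library gave 442 of these low-hypoxia cells and the control library gave 216. The upper part of the ranking, 161 cells of the OX40 agonist library and 168 of the control library, is called high-hypoxia cells here.

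The OX40 agonist group was 1 library from mice labelled as treated with an OX40 agonist, per the series title an agonist antibody. OX40 is a co-stimulatory receptor of T cells. The control group was 1 library from mice labelled control, with no further word on what they received. Both came from wild-type female C57BL/6 mice, 10 weeks old when B16-F10 cells, an established melanoma line of that strain, were placed under the skin of the right flank. Tumours were digested, leukocytes were enriched on Ficoll, and live CD45-positive cells were sorted for 10x Genomics 3′ libraries. The sort was aimed at leukocytes, so these melanoma cells are the ones that passed it and not a sample of the whole tumour. Dose, day of collection and the number of mice behind each library are not given in the sources used here. With 1 library in each group, no difference below has a replicate check or a p-value, and every interval covers counting error only.

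Hypoxia genes are switched on when oxygen falls and prolyl hydroxylases no longer mark HIF transcription factors for destruction. Car9 is a carbonic anhydrase at the cell surface, Pgf a growth factor of the VEGF family, Ndrg1 a stress-induced protein and Egln3 one of the prolyl hydroxylases. Interferons signal through JAK kinases and STAT factors and switch on genes of antigen presentation, by which tumour cells show peptides to T cells.

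The ranking genes had a median of 105 CPM (a gene's UMIs per 1000000 UMIs) over the low-hypoxia cells and 1051 CPM over the high-hypoxia cells, values that the rule itself fixed. The last cell inside the limit had 569.4 CPM and the first cell outside had 570.0 CPM, and 43 cells had no UMI of the 4 genes. Within 10% of the limit lay 25 cells inside and 23 cells outside, so the limit cut through a continuous range. Low-hypoxia cells were 73.3% of the melanoma cells of the OX40 agonist library (exact Clopper-Pearson 95% interval 69.6 to 76.8%) and 56.2% of those of the control library (51.1 to 61.3%). The lowest of the 3 parts of the ranking held 234 OX40 agonist cells and 95 control cells, and the middle part 208 OX40 agonist cells and 121 control cells. Car9 stood at 64.3 CPM in OX40 agonist low-hypoxia cells and 91.0 CPM in control ones, Pgf at 16.1 and 26.0 CPM, Ndrg1 at 55.1 and 63.3 CPM, and Egln3 at 5.84 and 5.87 CPM.

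**Figure D1:**
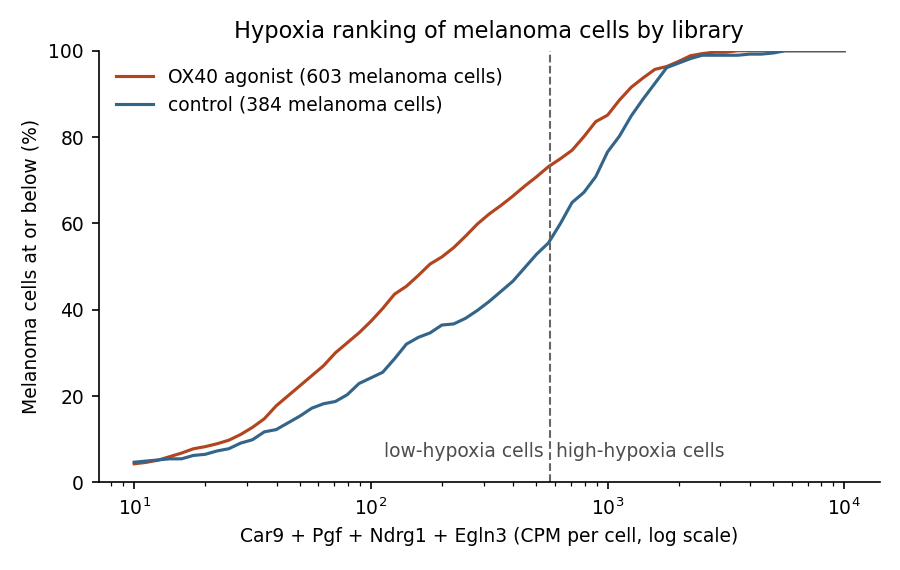
Cumulative share of melanoma cells (y axis, %) at or below a given level of the 4 ranking genes together (x axis, CPM per cell, log scale) in each library. The dashed line is the limit at 569.4 CPM, below which lie 73.3% of the OX40 agonist cells and 56.2% of the control cells.

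The cells carried the markers of a melanoma cell. Pmel, which builds the fibrils of the melanosome, stood at 4014 CPM in OX40 agonist low-hypoxia cells and 4387 CPM in control ones. In barcodes with under 5 pigment UMIs, taken here as the leukocytes of the same libraries, it stood at 28.8 and 29.7 CPM. Mlana, a melanosome antigen, stood at 2950 and 3088 CPM in the low-hypoxia cells, and Dct, an enzyme of melanin synthesis, at 5081 and 5233 CPM. These 3 genes chose the cells. Rhox5, a homeobox gene that the rule did not use, stood at 688 CPM in OX40 agonist low-hypoxia cells and 643 CPM in control ones, against 5.53 and 4.54 CPM in the leukocytes. Tyrp1, another melanin enzyme outside the rule, stood at 1762 and 1792 CPM in the low-hypoxia cells. Among the regulators of the melanocyte lineage, Mitf stood at 388 and 351 CPM, Sox10 at 134 and 136 CPM, and Pax3 at 175 and 153 CPM.

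Host RNA was present in these cells at a low level. Xist, the X-inactivation RNA of female cells, stood at 8.83 CPM in OX40 agonist low-hypoxia cells and 7.31 CPM in control ones, which is 1.07% and 0.986% of its level in the leukocytes. The Y-linked genes Ddx3y, Eif2s3y and Uty had no UMI in the low-hypoxia cells, and Kdm5d stood at 0.03 and 0 CPM. Ptprc, which encodes CD45, was at 0 UMIs in 377 of 442 OX40 agonist cells and 184 of 216 control cells. The 16 T and NK cell markers summed to 33.1 CPM in OX40 agonist low-hypoxia cells and 53.2 CPM in control ones, against 4949 and 6842 CPM in the leukocytes, and none of the 16 reached 10 CPM in low-hypoxia cells. The 16 macrophage and monocyte markers summed to 777 and 770 CPM in low-hypoxia cells, of which Apoe, which melanoma cells can also express, gave 603 and 609 CPM. In the leukocytes that list summed to 13792 and 12292 CPM. A few members were rich in leukocyte RNA, with 1500 CPM or more over 12 genes common to leukocytes in 19 OX40 agonist cells and 13 control cells. The receptor that the treatment binds, Tnfrsf4, stood at 1.91 CPM in OX40 agonist low-hypoxia cells and 3.54 CPM in control ones, against 244 and 248 CPM in the leukocytes, and its ligand gene Tnfsf4 at 0 and 0.11 CPM.

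The depth differed between the libraries. The median low-hypoxia cell had 69630.5 UMIs in the OX40 agonist library and 85113.5 UMIs in the control library, and the median high-hypoxia cell had 53858 and 64695 UMIs. Summed over cells, the low-hypoxia profiles rested on 30815634 UMIs in the OX40 agonist library and 18061225 UMIs in the control library. Of the deposited barcodes, 18 occurred in both libraries, and 0 low-hypoxia cells were among them.

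Genes of the interferon response and of antigen presentation were lower in OX40 agonist than in control low-hypoxia cells. All UMIs of a library's low-hypoxia cells were summed, and the 7863 genes that reached 10 CPM in the higher library were compared by the log2 ratio after adding 10 CPM to both. Past 1.5-fold, 82 genes were lower (1.04% of those compared) and 6 were higher (0.0763%), and the median of all 7863 was 0.02. Of the 82 lower genes, 42 were in the lists for interferon-gamma response, type I interferon response, MHC class I or MHC class II, which together held 52 of the genes compared. Past 2-fold, 35 genes were lower (0.445%), and 30 of them were in those lists.

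GTPases induced by interferon-gamma were among the lowest. Igtp, an immunity-related GTPase, stood at 49.7 CPM in OX40 agonist cells and 199 CPM in control cells, a log2 ratio of -1.81 and a ratio of 0.249 (95% interval 0.235 to 0.265). Iigp1, of the same family, stood at 65.2 and 219 CPM (log2 ratio -1.61). The guanylate-binding proteins Gbp2 (36.6 and 143.6 CPM), Gbp4 (11.7 and 56.9 CPM) and Gbp7 (31.9 and 104 CPM) had log2 ratios of -1.72, -1.63 and -1.45. Ifi47, another interferon-induced GTPase, which is outside the lists, stood at 48.6 and 150 CPM. In the leukocytes Igtp stood at 47.2 CPM in the OX40 agonist library and 64.3 CPM in the control library, so the control melanoma cells were above their leukocytes. Guanylate-binding proteins are close in sequence, and the split of UMIs between them is uncertain. A transcription factor of the pathway, Irf1, stood at 27.0 CPM in OX40 agonist cells and 73.7 CPM in control cells. Of the 24 genes in the interferon-gamma list, 14 were compared, 12 of these were lower past 1.5-fold and none was higher, with a median of -1.31. Over all 24, whatever their level, 22 were lower by any amount and the median was -0.59, where 43.5% of the 7863 genes compared were lower by any amount. The 2 compared genes within 1.5-fold after the added 10 CPM were Cxcl10 and Nlrc5. Cxcl10, a chemokine for activated T cells, stood at 167 CPM in OX40 agonist cells and 221 CPM in control cells. Nlrc5, a co-activator of class I genes, stood at 4.74 and 10.96 CPM. Its levels are near or below the added 10 CPM, which shrinks its ratio, and without that addition it would be past 1.5-fold.

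Promoters of 2 of these GTPases and of Irf1 are shown because they hold the elements that interferon signals are known to use. The windows below run from 250 bases before to 50 bases after the RefSeq start (GRCm38.p6), and the capitals mark GAS (TTCNNNGAA, the interferon-gamma activated site) and ISRE (GAAA and GAAA with 2 bases between, the interferon-stimulated response element), searched on both strands. Igtp (chr11:58199306-58199605, plus strand) has a GAS that begins 45 bases before the start and an ISRE that begins 34 bases before it. Irf1 (chr11:53769764-53770063, plus strand) has a GAS 90 bases before the start, and Gbp2 (chr3:142620413-142620712, plus strand) an ISRE 59 bases before it, read on the other strand. Irf1 has 2 windows in the table, of which 1 is shown.
Igtp: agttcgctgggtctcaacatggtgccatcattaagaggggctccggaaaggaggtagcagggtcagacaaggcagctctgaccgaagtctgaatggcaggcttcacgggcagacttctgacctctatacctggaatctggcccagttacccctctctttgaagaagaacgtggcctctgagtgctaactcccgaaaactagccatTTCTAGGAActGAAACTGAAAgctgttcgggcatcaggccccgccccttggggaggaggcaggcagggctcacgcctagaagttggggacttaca
Irf1: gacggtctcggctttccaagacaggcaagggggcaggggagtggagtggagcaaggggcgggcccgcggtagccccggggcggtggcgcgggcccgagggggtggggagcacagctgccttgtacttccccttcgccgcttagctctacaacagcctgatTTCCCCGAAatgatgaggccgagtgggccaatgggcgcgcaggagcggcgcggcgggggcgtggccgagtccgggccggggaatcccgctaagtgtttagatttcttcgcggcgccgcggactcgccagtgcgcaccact
Gbp2: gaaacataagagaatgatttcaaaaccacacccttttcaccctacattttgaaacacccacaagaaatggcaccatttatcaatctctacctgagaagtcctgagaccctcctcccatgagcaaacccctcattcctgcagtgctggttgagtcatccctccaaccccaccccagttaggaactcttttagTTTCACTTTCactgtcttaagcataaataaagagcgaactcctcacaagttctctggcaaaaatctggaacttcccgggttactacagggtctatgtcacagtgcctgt
Of the interferon-gamma list, 15 genes had a window, 8 with a GAS and 11 with an ISRE. Over all 27025 symbols with a window, 9.55% had a GAS and 3.99% an ISRE. In the MHC class I list 2 of 19 genes had a GAS and 5 of 19 an ISRE, and in the type I list 4 of 16 had a GAS and 9 of 16 an ISRE. The MHC class II list, with the lowest median, had a GAS in 1 of 8 genes and an ISRE in 1 of 8. These are matches of letters within 300 bases and do not show binding.

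The machinery that loads peptides on MHC class I was lower across its steps. Psmb9 and Psmb8, subunits of the immunoproteasome that cuts the peptides, stood at 35.5 and 30.3 CPM in OX40 agonist cells and at 126 and 103 CPM in control cells. Tap1, a chain of the transporter that carries peptides into the endoplasmic reticulum, stood at 15.9 CPM in OX40 agonist cells and 57.5 CPM in control cells. The heavy chain gene H2-D1 stood at 260 and 689 CPM, and B2m, the light chain, at 884 and 1849 CPM, a log2 ratio of -1.06. Of 17 class I genes compared, 13 were lower past 1.5-fold and none was higher, with a median of -1.11, and over all 21 listed the median was -1.05. The chaperones Calr (803 and 830 CPM) and Pdia3 (539 and 545 CPM), which also serve other proteins, stayed near equal, and the heavy chain H2-K1 stood at 34.7 CPM in OX40 agonist cells and 50.4 CPM in control cells. Class I heavy chain genes are close in sequence, so the split of UMIs between them is uncertain.

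MHC class II genes, which melanoma cells can express under interferon-gamma, had the lowest median of the 4 lists. Cd74, the invariant chain, stood at 330 CPM in OX40 agonist cells and 1107 CPM in control cells, a log2 ratio of -1.72. H2-Aa, an alpha chain, stood at 165 and 539 CPM, H2-Eb1, a beta chain, at 75.8 and 245 CPM, and H2-DMb1, part of the peptide editor, at 48.0 and 154 CPM. Of 7 genes compared, 6 were lower past 1.5-fold, with a median of -1.53. The exception was Ctss, a protease of leukocytes that also trims the invariant chain, at 20.8 CPM in OX40 agonist cells and 19.4 CPM in control cells. Leukocytes express these genes strongly, so their level here was set against the host RNA. H2-Aa stood at 8.88% of its leukocyte level in OX40 agonist cells and 26.4% in control cells, where Xist stood at 1.07% and 0.986%. With the leukocyte level times the Xist share subtracted, the class II median was -1.74 with 6 genes lower, and that of the interferon-gamma list -1.32 with 12 genes lower. With the 19 OX40 agonist and 13 control cells rich in leukocyte RNA left out, the medians were -1.51 for class II and -1.32 for the interferon-gamma list.

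Type I interferon genes were lower as well, with a median nearer 0. Zbp1, a sensor of nucleic acids, stood at 23.1 CPM in OX40 agonist cells and 78.8 CPM in control cells. Bst2, a tether of budding viruses, stood at 296 CPM in OX40 agonist cells and 598 CPM in control cells, Isg15, a ubiquitin-like modifier, at 40.7 and 99.1 CPM, and Ifit3, an antiviral RNA-binding protein, at 13.2 and 42.9 CPM. Of 14 genes compared, 11 were lower past 1.5-fold and none was higher, with a median of -0.87, and over all those in the matrix the median was -0.53. The genes that receive the signal differed little. Ifngr1 stood at 16.1 CPM in OX40 agonist cells and 13.5 CPM in control cells, Ifngr2 at 54.5 and 44.6 CPM, Ifnar1 at 19.05 and 17.9 CPM, and Jak1 at 47.6 and 46.7 CPM. None of the 11 receptor and JAK-STAT genes compared was past 1.5-fold after the added 10 CPM, with a median of 0.02. The lowest was Irf9, a factor of the type I interferon signal, at 7.5 CPM in OX40 agonist cells and 14.8 CPM in control cells. Its log2 ratio of -0.51 is shrunk by the added 10 CPM, without which it would be past 1.5-fold. Cd274, which encodes PD-L1 and is also in the interferon-gamma list, stood at 8.66 and 18.99 CPM. In the leukocytes the medians of the same genes were -0.35 for the interferon-gamma list, -0.09 for type I, -0.21 for class I and -0.15 for class II.

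**Figure D2:**
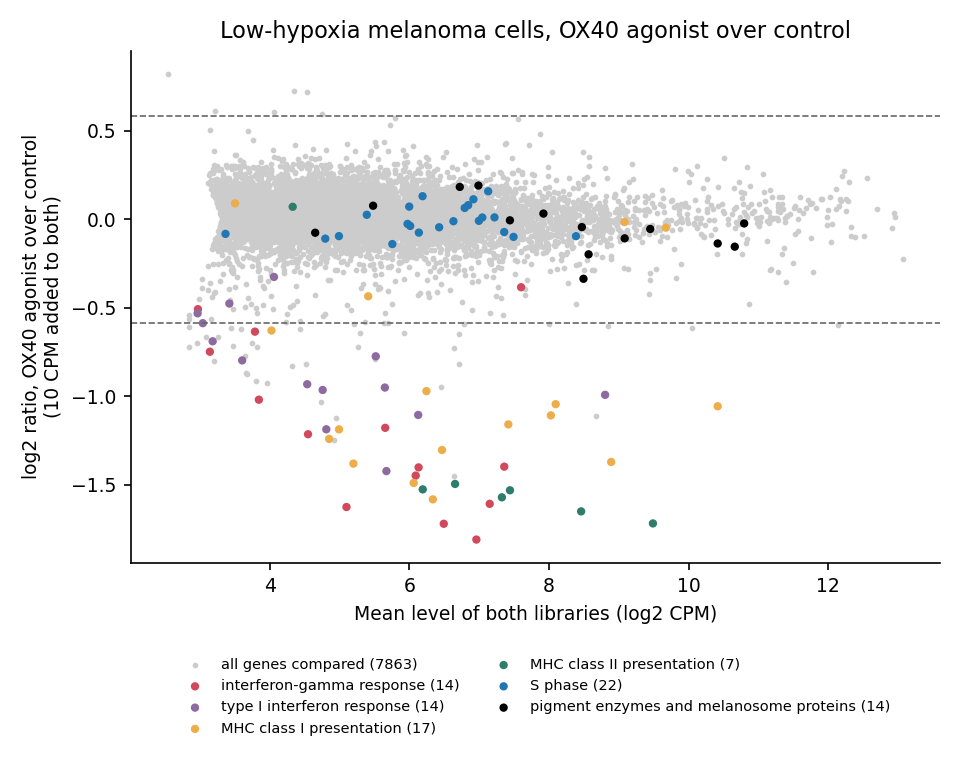
Each point is 1 of the 7863 genes compared in low-hypoxia cells, with the mean level of both libraries (x axis, log2 CPM) and the log2 ratio of OX40 agonist over control after adding 10 CPM (y axis). Dashed lines mark 1.5-fold, and the 4 interferon and MHC lists lie mostly below the lower one while the S phase and pigment genes lie near 0.

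The lower level showed in the typical cell and not only in the sum. After each cell was thinned to 10000 UMIs, which left out 23 OX40 agonist and 18 control cells that were shallower, the median low-hypoxia cell had 1 UMI of the interferon-gamma list in the OX40 agonist library and 9 UMIs in the control library. The 75th percentiles were 4 and 21 UMIs. For MHC class II the medians were 1 and 16 UMIs, and for MHC class I 25 and 56 UMIs. The distributions overlapped, since the highest OX40 agonist cell had 147 UMIs of the interferon-gamma list and the highest control cell 189. The list was also less evenly spread in the OX40 agonist library, where the 10% of cells highest in it held 62.9% of its UMIs, against 41.5% in the control library. Cells with more of the interferon-gamma list also had more class I (Spearman 0.54 over 419 OX40 agonist cells and 0.67 over 198 control cells) and more class II (0.57 and 0.60), all counted in the same cells and depth. Its correlation with the leukocyte common genes was 0.05 and 0.03. Without the 10% of cells highest in the interferon-gamma list in each library, that list's median log2 ratio was -1.60. These cells were chosen by the list compared and held more of its UMIs in the OX40 agonist library. A ratio further from 0 thus follows from the choice and is not separate support.

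**Figure D3:**
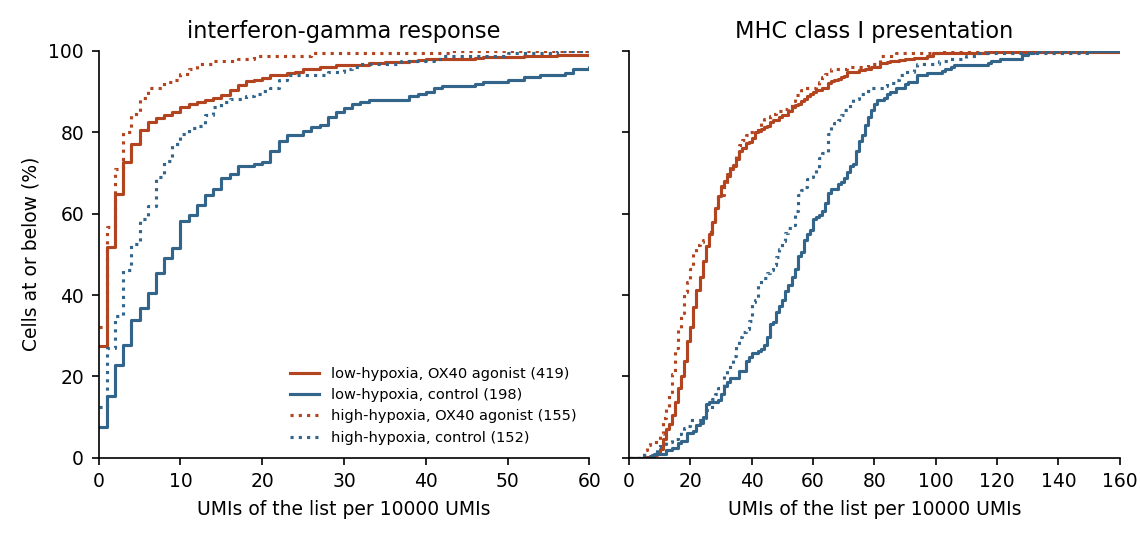
Cumulative share of cells (y axis, %) at or below a number of UMIs of the interferon-gamma list (left) and the MHC class I list (right) per 10000 UMIs (x axis, which ends before the highest cells), for low-hypoxia (solid) and high-hypoxia cells (dotted) of each library. The OX40 agonist curves lie left of the control curves, with low-hypoxia medians of 1 and 9 UMIs for the interferon-gamma list and 25 and 56 UMIs for MHC class I.

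The difference was present at each level of the hypoxia ranking. The interferon-gamma median was -1.32 in the lowest part of the ranking, -1.26 in the middle part and -0.80 in the highest part, which is the high-hypoxia cells, over the same 14 genes. Igtp stood at 62.7 CPM in OX40 agonist cells and 242 CPM in control cells of the lowest part, at 32.3 and 167 CPM in the middle part, and at 19.08 and 81.9 CPM in the highest part. In the high-hypoxia cells 53 genes were lower past 1.5-fold (0.691% of 7672) and 3 were higher (0.0391%), and 40 genes were lower past 1.5-fold in both parts of the ranking. Of the 82 genes lower in low-hypoxia cells, 81 were lower by some amount in the high-hypoxia cells, as were 56.0% of all 7863. Type I genes differed less there, with 4 lower past 1.5-fold and a median of -0.35, while class II had 6 lower and a median of -1.48. The difference between low- and high-hypoxia cells in these ratios was not tested. Split by depth instead, the interferon-gamma median was -1.46 in the shallowest of 3 parts (166 OX40 agonist and 54 control cells), -1.50 in the middle part (163 and 56) and -1.13 in the deepest (113 and 106). The type I median was -1.66, -1.03 and -0.48 in the same parts.

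Other lists differed little between the libraries. The 14 pigment genes other than those of the rule had a median of -0.05, the 22 S phase genes -0.02, the 22 genes of G2 and mitosis -0.02 and the 17 hypoxia genes other than the ranking genes 0.00, and none of these genes was past 1.5-fold. Split by depth, the S phase median was -0.07 in the shallowest part, 0.71 in the middle part and 0.03 in the deepest, and that of G2 and mitosis -0.02, 0.22 and 0.30, so these lists were not near equal at every depth. Rrm2, a subunit of ribonucleotide reductase, stood at 323 CPM in OX40 agonist cells and 346 CPM in control cells, and Top2a, the topoisomerase of dividing cells, at 269 and 327 CPM. Glycolysis genes had a median of -0.28 over 16 genes, of which 15 were lower by any amount, against 43.5% of all genes compared. The 5th and 95th percentiles of all genes compared were -0.20 and 0.22. Of the glycolysis genes 1 was past 1.5-fold: Eno1, an enolase, at 837 CPM in OX40 agonist cells and 1285 CPM in control cells. The control low-hypoxia cells also lay higher in the hypoxia ranking, and within its lowest and middle parts the glycolysis medians were -0.25 and -0.16. Nuclear genes of oxidative phosphorylation had a median of 0.00. The 12 mitochondrial transcripts compared had a median of 0.25, and 11 were higher by any amount, against 56.5% of all genes compared. The mitochondrial share of UMIs had a median of 3.19% of a cell in the OX40 agonist library and 2.83% in the control library.

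**Figure D4:**
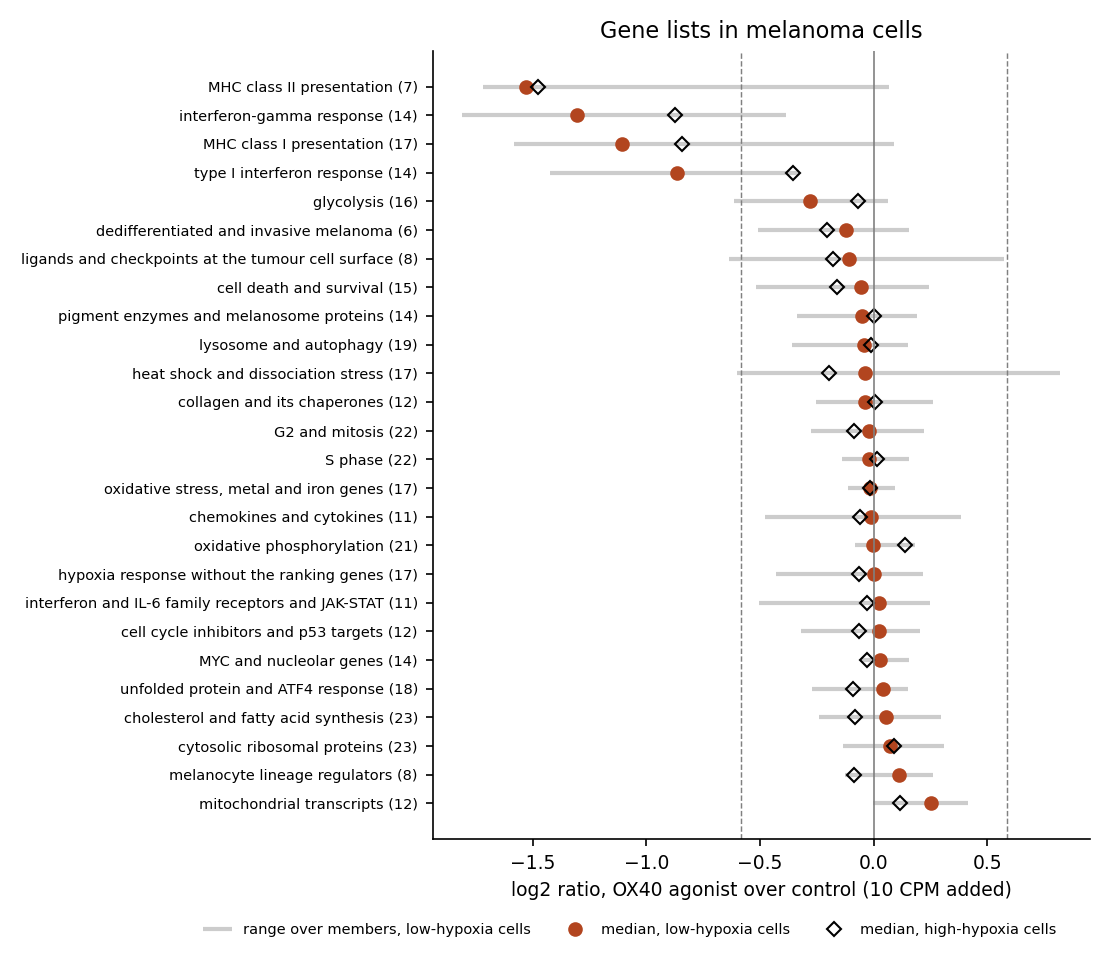
Median log2 ratio of OX40 agonist over control for each list with 5 or more genes compared (number in brackets), in low-hypoxia cells (filled circles, grey bars for the range over the genes) and in high-hypoxia cells (open diamonds). Of the lists drawn, only the 4 interferon and MHC lists have a low-hypoxia median below the dashed line for 1.5-fold lower, from -0.87 to -1.53.

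Among genes outside the 4 lists, Tmsb10, a small actin-binding protein and 1 of the 10 most abundant genes of these cells, stood at 3583 CPM in OX40 agonist low-hypoxia cells and 5417 CPM in control ones. Cited1, a co-activator found in pigment cells, stood at 72.9 and 136 CPM, and Fos, an immediate early factor, at 362 and 555 CPM. Further genes past 1.5-fold were picked after their values were seen. Ifitm3, an interferon-induced membrane protein outside the lists, stood at 255 CPM in OX40 agonist cells and 562 CPM in control cells, and Apol9a at 13.9 and 46.7 CPM, where Apol9a and Apol9b are near-identical copies. Gstp1, a glutathione transferase, stood at 56.9 and 119 CPM, and its log2 ratio of -0.95 in low-hypoxia cells stood beside -0.83 in high-hypoxia cells and -0.51 in the leukocytes. The 6 higher genes were Hspa1a, Hspa1b, Il1b, Pf4, Gadd45b and Col9a1. Hspa1a, a heat shock protein, stood at 10.2 CPM in OX40 agonist cells and 1.44 CPM in control cells, and 1 cell gave 56.4% of the OX40 agonist UMIs. Il1b, a cytokine of myeloid cells, stood at 31.4 and 15.1 CPM, and a single cell gave 26.0% of the control UMIs. Col9a1, a collagen chain, stood at 34.4 and 19.4 CPM.

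Low-hypoxia cells had less of hypoxia and glycolysis genes and more of cell cycle genes than high-hypoxia cells in both libraries. Of 7784 genes compared, 55.0% were higher and 31.0% lower by any amount in both libraries, and 385 were higher past 1.5-fold in low-hypoxia cells of both libraries (4.95%) and 201 were lower (2.58%). The ranking made these groups of cells, so the values are a description. Several of the 10 lowest genes were hypoxia targets that the ranking did not use. Ero1l, an oxidase of the endoplasmic reticulum, stood at 170 CPM in low-hypoxia and 1033 CPM in high-hypoxia cells of the OX40 agonist library, and at 232 and 1171 CPM in the control library. Bnip3, a mitophagy receptor, stood at 174 and 875 CPM in the OX40 agonist library, and at 231 and 902 CPM in the control library. Slc2a1, the glucose transporter GLUT1, had log2 ratios of low over high of -2.08 in the OX40 agonist library and -1.90 in the control library, and Vegfa, the angiogenic growth factor, of -1.73 and -1.97. The lowest of the 10 was Selenbp1, which is in none of the lists, with log2 ratios of -2.83 in the OX40 agonist library and -2.42 in the control library. Espn, Nppb, Cited1, Egln1 and Isg20 completed the 10 lowest. Of the 17 hypoxia genes compared, 15 were lower past 1.5-fold in both libraries, and of 16 glycolysis genes 11 were. Gapdh, a glycolytic enzyme, stood at 7924 CPM in low-hypoxia and 15760 CPM in high-hypoxia cells of the OX40 agonist library, and at 9270 and 16306 CPM in the control library.

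Among the 385 higher genes were many of the cell cycle lists. Rrm2 stood at 323 CPM in low-hypoxia and 123 CPM in high-hypoxia cells of the OX40 agonist library, and at 346 and 120 CPM in the control library. Pclaf, a partner of the replication clamp, stood at 417 and 163 CPM in the OX40 agonist library, and at 416 and 167 CPM in the control library. Cdc20, an activator of the anaphase-promoting complex, had log2 ratios of 1.26 in the OX40 agonist library and 1.16 in the control library, and Srm, which makes the polyamine spermidine, of 1.14 and 1.19. Past 1.5-fold in both libraries, 18 of 21 S phase genes were higher, as were 19 of 22 genes of G2 and mitosis, 9 of 14 MYC and nucleolar genes and 6 of 23 genes of cholesterol and fatty acid synthesis. Per 10000 UMIs, the median low-hypoxia cell had 18 UMIs of the S phase list in the OX40 agonist library and 17 in the control library, and the median high-hypoxia cell had 5 and 4. Depth went with this, as low-hypoxia cells held more UMIs, and its part in the difference was not tested. Within low-hypoxia cells, the correlation of the G2 and mitosis list with the ranking genes was -0.24 over the OX40 agonist cells and -0.26 over the control cells.

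In the summed UMIs, interferon-gamma and type I genes differed in opposite directions along the ranking. Iigp1 was among the 10 highest of low over high, with log2 ratios of 1.31 in the OX40 agonist library and 1.41 in the control library. Igtp, at 1.04 and 1.19, Irgm1, another immunity-related GTPase, at 0.75 and 0.91, and Cxcl10, at 1.36 and 1.04, were higher as well, making 4 of the 11 interferon-gamma genes compared. Type I genes went the other way, with 5 of 15 lower past 1.5-fold in both libraries and none higher past it. Isg15 stood at 28.0, 57.8 and 143 CPM from the lowest to the highest part of the ranking in the OX40 agonist library, and at 93.9, 103 and 173 CPM in the control library. The typical cell did not show this for the type I list, whose median per 10000 UMIs was 3 in low-hypoxia and 3 in high-hypoxia cells of the OX40 agonist library, and 9 and 8 in the control library. The 75th percentiles did differ, at 6 in low-hypoxia and 11 in high-hypoxia cells of the OX40 agonist library, and 15 and 18 in the control library. The 10% of cells highest in the type I list held 45.0% of its UMIs in low-hypoxia and 54.1% in high-hypoxia cells of the OX40 agonist library. In the control library they held 35.4% and 40.3%. For the interferon-gamma list, the median per 10000 UMIs differed in the control library only, at 9 in low-hypoxia and 4 in high-hypoxia cells. In the OX40 agonist library it was 1 in low-hypoxia and 1 in high-hypoxia cells. H2-D1 differed less along the ranking, at 251, 273 and 268 CPM in the OX40 agonist library and 656, 714 and 699 CPM in the control library. As a list, MHC class II had median log2 ratios of low over high of 0.59 in the OX40 agonist library and 0.58 in the control library. Of its 7 genes, 6 were higher by any amount in both libraries and 3 past 1.5-fold. For MHC class I the medians were 0.16 and 0.42. Of its 17 genes, 14 were higher in both libraries, against 55.0% of all genes compared, and 2 past 1.5-fold, against 4.95%.

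**Figure D5:**
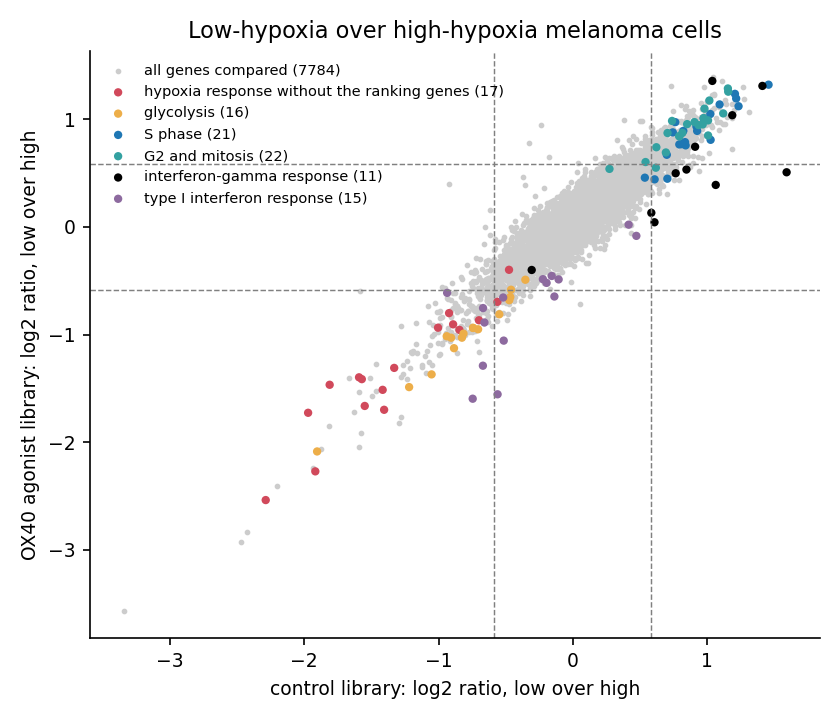
Log2 ratio of low-hypoxia over high-hypoxia cells for 7784 genes in the control library (x axis) and the OX40 agonist library (y axis), with dashed lines at 1.5-fold. The hypoxia and glycolysis genes lie at the lower left, the S phase and G2 genes at the upper right, and the type I interferon genes apart from the interferon-gamma genes.

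The pigment and hypoxia groups have known promoter elements too. Tyrp1 (chr4:80833963-80834262, plus strand), whose level is given above as a check of the label, has the M-box TCATGTG of MITF that begins 47 bases before its start. Car9 (chr4:43506776-43507075, plus strand), the ranking gene with the highest level in high-hypoxia cells, has the core ACGTG of the hypoxia response element, here read on the other strand, 18 bases before its start. Both are shown over the same window with the element in capitals.
Tyrp1: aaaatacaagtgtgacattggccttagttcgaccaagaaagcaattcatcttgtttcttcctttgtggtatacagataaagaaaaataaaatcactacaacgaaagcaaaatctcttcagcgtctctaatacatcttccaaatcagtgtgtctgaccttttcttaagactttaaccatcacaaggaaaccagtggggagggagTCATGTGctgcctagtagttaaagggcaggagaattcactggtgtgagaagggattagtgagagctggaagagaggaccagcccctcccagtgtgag
Car9: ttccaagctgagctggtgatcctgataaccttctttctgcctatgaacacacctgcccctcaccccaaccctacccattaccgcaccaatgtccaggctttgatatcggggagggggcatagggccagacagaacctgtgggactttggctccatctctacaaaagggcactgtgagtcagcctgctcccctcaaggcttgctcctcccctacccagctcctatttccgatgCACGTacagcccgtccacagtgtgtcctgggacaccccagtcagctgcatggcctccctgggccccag
The core was present in 14 of 18 hypoxia genes with a window and 11 of 18 glycolysis genes, against 21.8% of all symbols, and the M-box in 4 of 12 pigment genes, against 4.31%. The core was also in 5 of the 12 pigment genes and 7 of 19 MHC class I genes. It was in 2 of 15 interferon-gamma, 1 of 16 type I and 0 of 8 MHC class II genes. A gene counted if any of its windows matched. The 18 hypoxia genes had 28 windows and the 18 glycolysis genes 27, where all 27025 symbols had 32851.

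The low-hypoxia cells also differed among themselves. The 10 genes of highest CPM, outside mitochondrial and ribosomal ones, were Gapdh, Eef1a1, Ppia, Actb, Ftl1, Dct, Fth1, Hsp90ab1, Pmel and Tmsb10, read as 3′ end counts without division by length. The Fano factor, the variance over the mean of a gene's UMIs per 10000, was highest for Malat1, Tmsb4x, Lgals3, Cst3, Cd74, Ptgds, Cxcl2, Gapdh, Cxcl10 and Pmel, by the smaller value of the 2 libraries. Some of these rest on few cells. Of the UMIs of Cxcl2, a neutrophil chemokine, 31.9% in control low-hypoxia cells came from 1 cell, and of those of Lgals3, a lectin of macrophages, 34.8%. Ptgds, a prostaglandin synthase, was instead a gene of the melanoma cells, at 2873 CPM in OX40 agonist low-hypoxia cells and 3042 CPM in control ones, against 20.1 and 18.1 CPM in the leukocytes.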

How the data were processed

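The authors deposited UMI counts per gene and barcode for each of the 2 libraries. They were made with Cell Ranger on the mm10 build, per the submitters' processing notes, with software version 3.1.0 per the file headers, and the barcodes are those kept by a cell calling for which no source used here gives the settings. The counts were used as deposited. The membership rule, the gene lists and the comparisons were chosen with earlier results of these data known, so no list is independent support.

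UMIs were summed over the cells of a part in each library and divided by the total to give CPM. Log2 ratios were taken after adding 10 CPM, over genes at 10 CPM or more, and genes past 1.5-fold were counted. Ratios carry exact 95% intervals conditional on both counts, and shares Clopper-Pearson intervals. PCR duplicates were removed by UMI, but cells of 1 library share its mice and handling, so intervals cover counting error only. Named genes were those with at least 50 CPM, 30 UMIs and 5% of cells in the higher library, intervals that do not overlap and at least 0.5 times the level over all barcodes past the quality filter, the 10 highest and 10 lowest, with up to 4 genes of each list. No gene passed this rule as higher, and some genes that passed it are not reported here. For cell-level values each cell was thinned to 10000 UMIs. Scrublet in scanpy 1.11.5 called 0 doublets with its automatic threshold, so that call was not used and the highest scores were removed as an alternative. Scripts (Python 3.11.15, NumPy 2.4.6, SciPy 1.17.1) were tested on simulated data. Promoter windows are RefSeq's (GRCm38.p6), and gene positions were not needed beyond them.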

Additional observations from a re-analysis of the deposited data

How the results depend on the processing

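Results were recomputed under 14 alternatives planned and 5 added after seeing the data, of which the subtraction of host RNA and the cells highest in the interferon-gamma list left out were run for OX40 agonist over control and not for low over high (cells with any Xist UMI, under 10000 UMIs, rich in leukocyte RNA or highest in the interferon-gamma list left out, and host RNA subtracted). In 18 of the 19, all 1378 recomputed log2 values of results past 1.5-fold kept their direction, and 1323 stayed past 1.5-fold. For single genes, part of this was fixed in advance. Adding 1 or 50 CPM cannot turn a gene's direction, and a changed level filter leaves a gene's log2 value as it was. Each of these settings gave 82 of the values, list medians among them. The subtraction of host RNA gave 33 of the values, and near equal amounts taken from both libraries can hardly turn a direction either. The exception left out cells with 10 or more leukocyte marker UMIs, which kept 16 OX40 agonist and 11 control cells. There 2882 genes were lower and 2917 higher, 1594 were higher and 428 lower in low over high, and 7 values reversed: Cited1 (0.067) and Isg20 (1.99) for OX40 agonist over control, and for low over high the type I interferon median (1.32), Espn (2.80) and Iigp1 (-3.70) in the OX40 agonist library and Iigp1 (-0.22) and Nppb (2.25) in the control library. The leukocyte markers counted include Apoe, named above as a gene that melanoma cells can also express. They also include Bst2, at 296 CPM in OX40 agonist and 598 CPM in control low-hypoxia cells. The limit of 10 UMIs was not scaled to depth, so reaching it does not by itself mark a cell as rich in leukocyte RNA. The cause of the reversed values was not tested.

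The counts of lower interferon-gamma genes (8 to 14), class I genes (10 to 14) and class II genes (6) stayed within 1.5 times their value under all 19 alternatives, while the count of type I genes, 11, was 3 with 50 CPM added and 5 for genes at 50 CPM or more. Without the exception named, the interferon-gamma median ranged from -1.65 to -0.64. The number of genes lower past 1.5-fold, 82, was 125 with 1 CPM added, 34 with 50 CPM added and 46 for genes at 50 CPM or more. The number higher, 6, was 18 with 1 CPM added, 0 with 50 CPM added, 0 for genes at 50 CPM or more, 3 without the highest doublet scores, 37 after thinning, 13 as a mean over cells, 11 for the lowest part of the ranking and 3 without the cells highest in the interferon-gamma list. For low over high, 385 genes higher became 754 with 1 CPM added, 92 with 50 CPM and 113 for the lowest part of the ranking, and 201 lower became 340 with 1 CPM, 72 with 50 CPM and 127 at 50 CPM or more. The added CPM shrinks ratios of low genes by its construction; other causes were not tested. No paired analysis was possible because each group has 1 library. Depth limits genes under 10 CPM.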

Other observations

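Some gene groups of the low-hypoxia cells belong to no comparison above. Of 25 germline and placental genes, 16 had no UMI in the low-hypoxia cells and 4 reached 10 CPM: Rhox5, Peg10, an imprinted gene of retroviral origin (17.4 CPM in OX40 agonist cells and 11.9 CPM in control cells), Xlr3a (18.1 and 15.4 CPM) and Xlr3b (10.5 and 9.80 CPM). Secreted factors were led by Mif, macrophage migration inhibitory factor, at 2216 CPM in OX40 agonist cells and 2235 CPM in control cells, Gdf15, a stress cytokine, at 220 and 227 CPM, and Vegfb at 207 and 213 CPM. Of the collagen list, Sparc, a matrix glycoprotein, stood at 865 and 1032 CPM and Serpinh1, the collagen chaperone, at 459 and 449 CPM, while the fibrillar chains Col1a1 (0.03 and 0.11 CPM) and Col3a1 (0.03 and 0.06 CPM) were near 0. Vwf, known as a gene of endothelial cells, stood at 27.4 CPM in OX40 agonist cells and 20.1 CPM in control cells, and the endothelial gene Cdh5 had no UMI in the low-hypoxia cells of either library.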
